A study of Mus musculus with 30 samples.

Results

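The interferon-stimulated genes described here are Ifit1, Ifit2, Ifit3, Isg15, Irf7, Usp18, Oasl2, Rsad2 and Bst2. They were chosen by name, as 9 of the 23993 genes in a table of FPKM (the fragments of a gene for its length and for the size of the library), and all 9 were found in it. The table holds 24 RNA-seq libraries of tdTomato-positive cells sorted from the mouse medial prefrontal cortex by fluorescence-activated cell sorting. The study compared the sexes, 2 interneuron classes, and mice exposed to chronic unpredictable stress (CUS), a schedule of changing mild stressors, for 14 days with undisturbed controls. All mice were young adults, labelled C57BL/6, heterozygous for a Cre driver and the Ai9 (RCL-tdTomato) reporter, which turns red in any cell that has ever made Cre. Sst-Cre mice carry Cre in the somatostatin gene and Pvalb-Cre mice in the parvalbumin gene. There were 7 libraries of Sst female controls, 7 of Sst male controls, 3 of Sst males after CUS and 7 of Pvalb male controls, and controls carried the same alleles as stressed mice.

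Type I interferons bind a receptor that activates JAK kinases and, through them, transcription factors that enter the nucleus and bind the interferon-stimulated response element in front of its target genes. The products of these genes slow viral replication, pass the signal on, or end it. In the brain most cells keep a low basal level of such genes, and microglia, the resident macrophages of the brain, respond strongly to interferon.

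In these libraries, 1 pair of near-identical male libraries held the highest Bst2, Isg15, Ifit3, Irf7 and Ifit1 of the series, and Usp18 was listed at 0 in it. Of 14498 expressed genes, 24.6% lay above and 26.4% below all other Sst controls in this pair. Oasl2 was higher in every Sst female than in every Sst male control, where 4.19% of all genes did not overlap. It passed the test only with the dated males among the controls or with near-identical libraries kept apart. Of all genes, 11.7% to 41.5% and 17.7% were called in these settings. Isg15 was called higher in Sst than in Pvalb controls (1.56 on the log2 scale), where 7.8% of all genes were called. It was listed at 0 in 4 of the 6 Pvalb samples, and a 0 here can be a failed estimate. This call was lost on leaving out any of 7 single samples, and without the 3 male-labelled Pvalb samples with the highest Xist, where the difference was 1.40. No member passed the test for CUS.

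SST0-M and SST1-M differed by less than any other pair of their group, with an SD of the log2 ratio over genes of 0.0212 against 0.267 for the next closest pair. PV0-M and PV2-M did so too, with 0.017 against 0.225, and each pair was averaged and counted as 1 sample, which left 22. Titles of male Sst controls are of 2 kinds, 3 samples with running numbers and 3 with longer numbers that read like a date, and all 3 CUS titles are of the dated kind. Small nucleolar and Cajal body RNA genes took 53.5% to 75.7% of the FPKM in dated libraries and 1.87% to 8.29% in numbered ones. Relative depth, estimated from the smallest values, ran from 0.46 to 2.46 with SST2-F set to 1.

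The labelled interneurons were checked against their markers. Gad1, which makes GABA, lay between 0 and 2.05 FPKM in the 24 libraries, and Sst was at 12.3 to 30.5 in Pvalb libraries, 4.18 to 49.3 in Sst females and 0 to 6.02 in Sst male controls. The 12 microglia markers summed to 2740 to 8540 FPKM per sample, and the 10 interneuron markers to 34.1 to 296. These go against the label of sorted interneurons, so Sst and Pvalb name the Cre driver below. Xist, the RNA of the inactive X chromosome, was at 479 to 644 FPKM in the females and at most 0.36 in the Sst males, but it reached 300 to 333 in 3 Pvalb libraries labelled male (PV1-M, PV4-M and PV5-M). Ddx3y, a gene of the Y chromosome, was at 1.87 to 2.15 FPKM in these 3. It was at 7.97 to 17.1 in the other Pvalb libraries and at most 0.0274 in the females. These 3 libraries thus held RNA of both genes. In addition, 9 genes were listed at 0 in all 10 Sst male libraries and above 10 FPKM in all 7 female ones, so a 0 here can be a failed estimate. In sorted bulk samples fewer cells of a type and less RNA per cell cannot be told apart.

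The promoters of 8 members were found in the RefSeq promoter set of GRCm38.p6 (the mm10 assembly), Usp18 being the exception. The core of the interferon-stimulated response element was searched as GAAANNGAAA on both strands, its reverse complement being TTTCNNTTTC, from 250 bases before to 50 after the start of transcription. It stood in 5 of these 8 genes and in 3.44% of all 32851 promoters. Of the 8, 4 held it 2 or more times, against 0.225% of all promoters. The 9 were chosen by name as interferon-stimulated genes, so these shares do not bear on any level measured here. The stretches that hold the core are shown with the matches in capitals, read 5′ to 3′ on the strand of the gene.
Isg15, chr4:156200869-156200968, minus strand: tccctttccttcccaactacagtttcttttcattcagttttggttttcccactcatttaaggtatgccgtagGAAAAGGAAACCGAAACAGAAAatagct
Bst2, chr8:71537523-71537622, minus strand: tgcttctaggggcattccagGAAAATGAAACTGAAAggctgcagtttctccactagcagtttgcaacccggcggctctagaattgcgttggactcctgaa
Ifit1, chr19:34640739-34640838, plus strand: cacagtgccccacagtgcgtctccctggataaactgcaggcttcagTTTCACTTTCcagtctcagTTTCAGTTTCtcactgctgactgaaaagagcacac
Rsad2, chr12:26456503-26456602, minus strand: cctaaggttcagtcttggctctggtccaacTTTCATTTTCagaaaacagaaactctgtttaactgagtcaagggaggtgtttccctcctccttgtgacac
Ifit3, chr19:34583363-34583392, plus strand: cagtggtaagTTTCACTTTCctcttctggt
Ifit3, chr19:34583397-34583426, plus strand: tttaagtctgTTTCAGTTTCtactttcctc

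Isg15 held 3 overlapping matches and Bst2 held 2, while Ifit1 and Ifit3 held 2 each that did not overlap and Rsad2 held 1. No match was found in these windows of Ifit2, Irf7 or Oasl2. A match is a description of letters, and binding was not measured here. Ifit1, Ifit2 and Ifit3 lie close together on chromosome 19 (Ifit2 at chr19:34550550-34576534, Ifit3 at chr19:34583119-34588982 and Ifit1 at chr19:34640889-34650009), and the other 6 lie on 6 chromosomes. The Ifit3 promoter searched (chr19:34583279-34583578) belongs to a start of transcription inside this span of Ifit3. Both printed Ifit3 stretches thus lie within the gene. Ifit1 and Ifit3 have related neighbouring copies in the mouse genome, so their levels can depend on how shared reads were assigned and are less certain.

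Levels of all 9 were modest. In the Sst females the medians ran, in FPKM, from 12.4 for Bst2 through 7.64 for Oasl2, 6.03 for Ifit3, 4.35 for Ifit1, 2.21 for Isg15, 1.82 for Irf7, 1.56 for Usp18 and 1.29 for Rsad2 to 1.26 for Ifit2. Bst2 and its neighbour in this order, Oasl2, overlapped between samples (9.55 to 14.6 and 3.57 to 11.9), as did every later pair of neighbours.

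**Figure D1:**
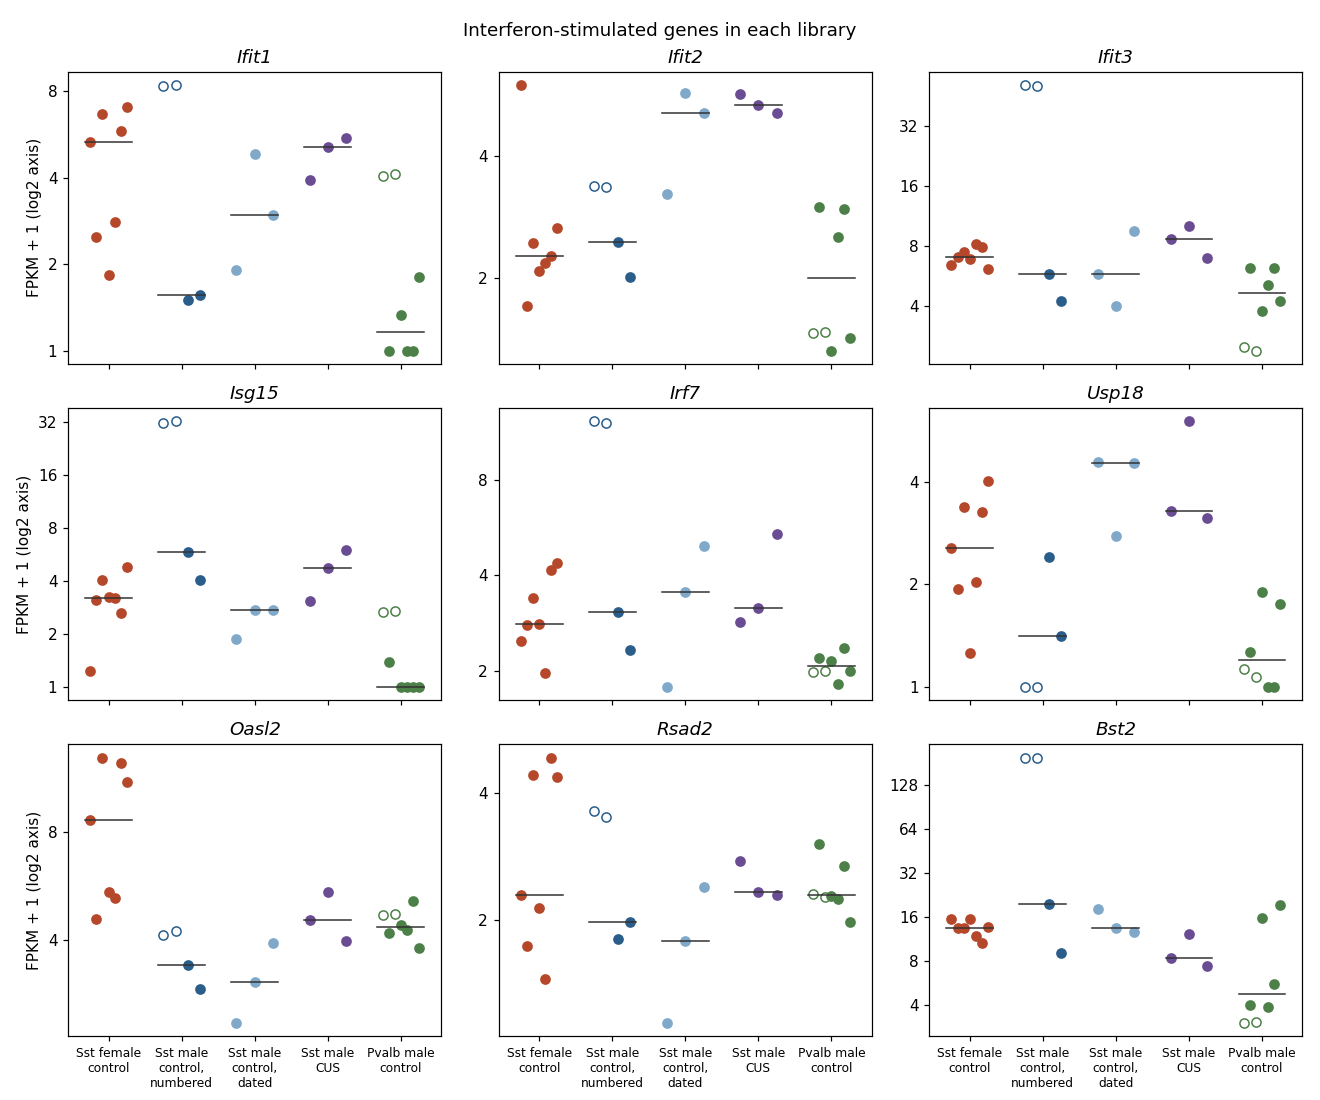
FPKM + 1 of the 9 genes on a log2 axis in each of the 24 libraries, by group. Open circles are the near-identical pairs, and lines are medians over samples, with each pair averaged. The pair SST0-M and SST1-M stands at 195 and 194 FPKM of Bst2, above the other 22 libraries.

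Irf7, the transcription factor that drives the second wave of interferon production, stood at 11.3 and 11.1 FPKM in SST0-M and SST1-M. It stood at 2.08 in SST3-M, at 1.33 in SST4-M, and at 0.781, 2.55 and 3.94 in the dated males. The females ran from 0.971 through a median of 1.82 to 3.39. The pair was therefore above every other Sst control, while males without it and females overlapped.

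Isg15, a ubiquitin-like protein that is joined to other proteins, was at 30.8 and 31.5 FPKM in the pair. SST3-M had 4.84 and SST4-M 3.04, and the dated males had 0.867, 1.75 and 1.75. Females ran from 0.223 (SST-F) through 2.21 to 3.79. Usp18, the protease that takes Isg15 off proteins and also damps the interferon receptor, was listed at 0 in both libraries of the pair. It stood at 1.40 and 0.413 in the other numbered males, at 3.58, 1.77 and 3.54 in the dated males and from 0.259 through 1.56 to 3.02 in the females. Thus Isg15 was highest, and Usp18 was listed lowest, of the Sst libraries in the same 2. Ifi35 and Oas1b, of the other type I interferon-stimulated genes, were also listed at 0 in both. Elsewhere they stood at 1.59 to 18.0 and at 0.299 to 3.99 FPKM. A 0 here can be a failed estimate, so the Usp18 value of the pair is uncertain.

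Ifit1, a protein that binds foreign RNA, and its relative Ifit3 were at 7.37 and 50.2 FPKM in the averaged pair. Ifit3 was at 4.79 and 3.24 in the other numbered males, at 4.76, 2.99 and 8.52 in the dated males and from 5.10 through 6.03 to 7.16 in the females. Ifit1 was at 0.495 and 0.57 in the other numbered males, at 0.904, 3.85 and 1.96 in the dated males and from 0.832 through 4.35 to 6.06 in the females. Both were highest in the pair, Ifit3 by a wide gap and Ifit1 close to the highest female. Ifit2, of the same family, was at 2.36 in the pair, 1.45 and 1.01 in the other numbered males and 2.23, 4.75 and 4.11 in the dated males. Females had Ifit2 from 0.698 through 1.26 to 5.00, so the pair lay inside the range of the females.

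Bst2, a membrane protein that tethers budding virus particles to the cell, was at 195 and 194 FPKM in the pair. The other Sst male controls had 18.6 (SST3-M), 8.13 (SST4-M), 17.0, 12.4 and 11.7, and the females 9.55 through 12.4 to 14.6. Against the median of the other 12 Sst control samples the pair was 15.7-fold higher in Bst2, 14.5-fold in Isg15, 8.88-fold in Ifit3, 5.74-fold in Irf7 and 3.91-fold in Ifit1. These 5 members lay above, and Usp18 below, all 12 other samples, where 24.6% of 14498 expressed genes lay above and 26.4% below. The pair is 1 sample, so these ratios have no replicate error.

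Several marker lists also stood apart in the pair. Their 6 astrocyte markers summed to 1050 FPKM, the highest of the 22 samples, and 8 early response genes that are known to be induced by tissue dissociation summed to 4650, also the highest. Endothelial markers summed to 178, against 17.2 to 141 in the other Sst controls. Single markers of these 2 cell types did not move alike. Gfap was at 0.467 and 0.490 FPKM in the pair, the lowest of all libraries, with the other astrocyte markers at or near their highest. Slco1a4 (100 in both) and Pecam1 were the highest of all libraries. Flt1 and Tek lay inside the range of the other Sst controls. Cldn5 (2.99 and 3.045) and Kdr (2.79 and 2.73) lay below every female (15.2 to 25.2 and 3.81 to 8.14). Microglia markers summed to 5840, inside the range of the others, and the 7 lymphocyte and neutrophil markers were all at 0. The pair also had the fewest genes above 0.4 FPKM (12124 and 12125, against at least 13295 elsewhere). The part of these in the levels of the 9 genes was not tested.

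**Figure D2:**
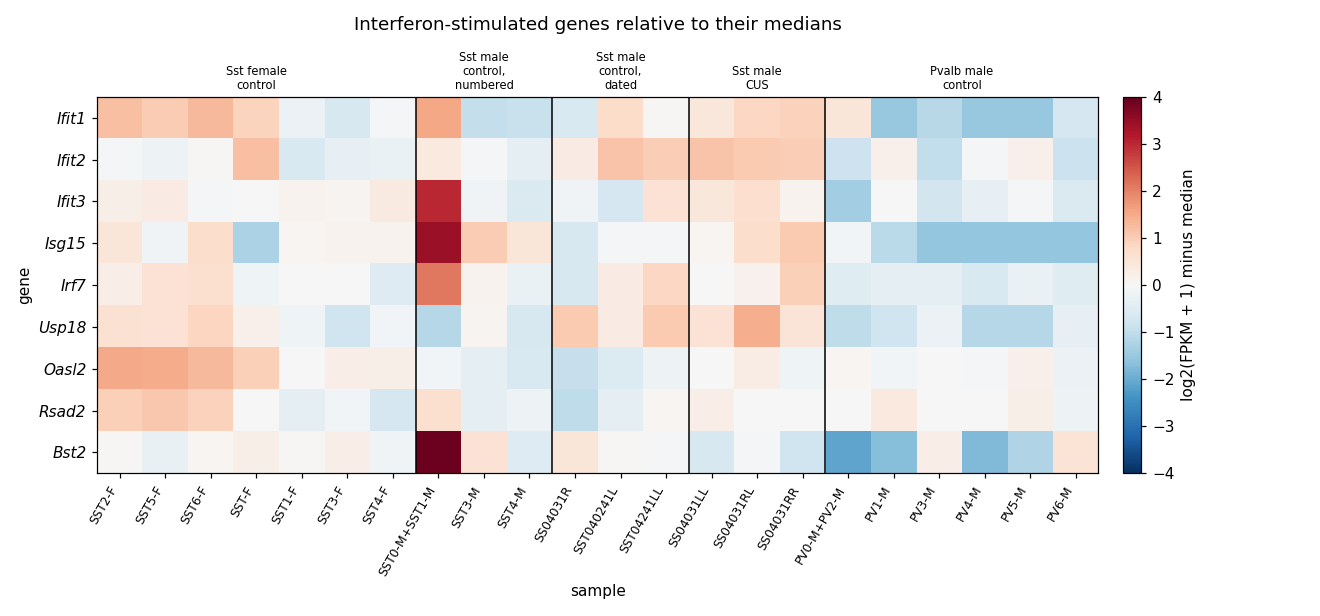
log2(FPKM + 1) of each gene minus its median over the 22 samples, in colour, with samples in columns by group. The near-identical males SST0-M and SST1-M, averaged, are red for Bst2, Isg15, Ifit3 and Irf7 and blue for Usp18, and SST2-F, SST5-F and SST6-F are red for Oasl2, Rsad2 and Ifit1.

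Sex was compared in Sst controls, the baseline question of the study, with 7 females against the 3 numbered males. The titles of these males are of the same kind as those of the females, though SST-F carries no number. Oasl2, a member of the oligoadenylate synthetase-like family, had the largest female excess of the 9 here, though Usp18 was above it with a pseudocount of 0.1 (1.76 against 1.45). It was at 3.57 (SST1-F), 4.24 (SST4-F), 4.42 (SST3-F), 7.64 (SST-F), 10.1 (SST6-F), 11.5 (SST5-F) and 11.9 (SST2-F) FPKM in the females. Both libraries of the pair had 3.11 and 3.23, the other numbered males 2.39 and 1.92, and the dated males 1.34, 2.04 and 2.92. Every female was above every male, with means of 7.61 ± 3.59 (SD, n = 7) and 2.49 ± 0.633 (n = 3 numbered).

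The log2 difference of Oasl2 (female minus male, on log2(FPKM + 1), which understates the change of low genes) was 1.20 ± 0.365 (SE), and its adjusted p by limma was 0.0828. None of the 9 passed the test, where 3.41% of the 14443 genes tested did. At an unadjusted p below 0.05, 2 members and 24.3% of all genes stood. Only Oasl2 of the 9 did not overlap between the groups, where 9.73% of all genes did not, and after quantile normalization its groups overlapped too. The median of the 9 was -0.007, and that of all genes 0.054.

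Isg15 had the largest difference the other way, -1.62 ± 0.579 (SE, limma adjusted p = 0.123), followed by Bst2 at -1.30 ± 0.673, with a 95% interval from -2.77 to 0.17. Without the pair the value of Bst2 was -0.01 ± 0.255 and that of Isg15 -0.71 ± 0.427, while Ifit3 went from -0.60 to 0.52 and Irf7 from -0.55 to 0.18. Ifit1 went from 0.60 to 1.41 ± 0.501 (limma adjusted p = 0.119), above Oasl2. Oasl2 was at 1.34 ± 0.412 (limma adjusted p = 0.0798) against the 2 numbered males left. Ifit1, Ifit3 and Oasl2, 3 of the 9, then did not overlap, where 19.8% of all genes did not. The male excess of Bst2, Ifit3 and Irf7 in the means thus came with 1 sample, and the female excess of Oasl2 did not depend on it.

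With all 6 male samples Oasl2 was called, at 1.29 ± 0.286 (limma adjusted p = 0.0161). It was the 1 member of 9 called there, against 11.7% of 14498 genes, and the 1 member without overlap, against 4.19%. With the 3 dated males Oasl2 was again the 1 member called, at 1.39 ± 0.359 (limma adjusted p = 0.00887), where 41.5% of 14532 genes were. With all males but the pair it was at 1.37 ± 0.289 (limma adjusted p = 0.00862), where 24.5% of genes were called. The females and these choices of males share the 7 female samples. Usp18 turned from 0.72 ± 0.381 against the numbered males to -0.64 ± 0.346 against the dated ones, and neither passed the test (limma adjusted p = 0.266 and 0.156).

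**Figure D3:**
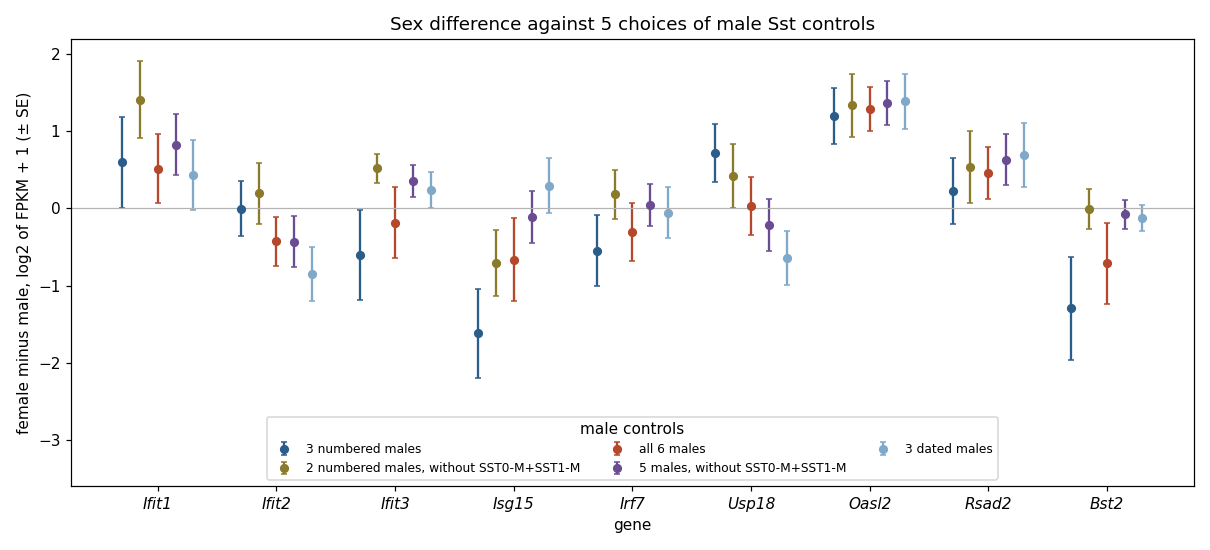
Female minus male log2 difference with its SE for each gene, against 5 choices of male Sst controls. Oasl2 stays between 1.20 and 1.39, while Bst2 moves from -1.30 with the pair SST0-M and SST1-M to -0.01 without it.

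The sexes also differed in markers of other cells. Against the numbered males, 4 of the 12 microglia markers were lower in females (Cx3cr1, Csf1r, C1qb and Itgam), with a median over the list of -0.93. Over all genes tested, 3.41% were called there. Of the 8 early response genes 3 (Fos, Fosb and Dusp1) were lower in females, with a median of -1.20, and of the 6 endothelial markers Cldn5 was higher. The part of these in Oasl2 was not tested. The summed microglia markers ran from 3230 to 6150 FPKM in females and from 5130 to 8160 in the numbered males.

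The females varied widely in some members. SST2-F, SST5-F and SST6-F held the 3 highest values of Oasl2, Rsad2, Ifit1, Usp18 and Irf7 among the 7 females. Rsad2, or viperin, a radical enzyme that makes a chain-terminating nucleotide, was at 3.42, 3.87 and 3.37 FPKM in them, at 1.29 in SST-F and from 0.447 to 1.13 in SST1-F, SST3-F and SST4-F. Ifit1 was at 5.66, 4.85 and 6.06 in the same 3, at 4.35 in SST-F and from 0.832 to 1.81 in the others. These 5 of the 9 members were above the other 4 females in all 3, as were 14.4% of 14461 genes. The same 3 libraries stood together over all genes, with an SD of the log2 ratio of 0.218 to 0.243 among them and 0.413 to 0.4658 against SST1-F, SST3-F and SST4-F.

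Bst2 (9.55 to 14.6), Ifit3 (5.10 to 7.16) and Isg15 in 6 of the females (1.62 to 3.79) did not share this order. SST-F stood alone in Ifit2, at 5.00 where the other females had 0.698 to 1.65, and in Isg15, at 0.223. It also stood apart from the other females over all genes, with an SD of the log2 ratio of 0.623 to 0.676. Its excitatory neuron markers summed to 237 FPKM, against 43.9 to 57.1 in the other females. S100a8, a neutrophil marker, was at 11.4, 4.91 and 11.5 FPKM in SST2-F, SST5-F and SST6-F and at 0 in the other 4 females, and S100a9 at 2.98, 0.952 and 4.76 and also at 0 in the others. Endothelial markers summed to 132, 141 and 139 in these 3 samples and to 73.0 to 104 in the other 4, while their relative depth (1.00, 0.633 and 0.633) lay between those of the others (0.46 to 1.54). The part of neutrophils or vessels in these levels was not tested.

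Sst and Pvalb cells were compared in controls, with 13 Sst samples of both sexes against 6 Pvalb males. Isg15 was listed at 0 in PV3-M, PV4-M, PV5-M and PV6-M, and stood at 0.38 in PV1-M and at 1.68 and 1.71 in the averaged pair PV0-M and PV2-M. In the same order, relative depth was 0.933, 0.582, 0.582, 0.48, 0.895, 1.815 and 1.79. A 0 here can be a failed estimate, and the part of depth was not tested. The Sst controls ran from 0.223 through 2.21 to 31.1, and SST-F, SST5-F and SS04031R fell inside the Pvalb range. Isg15 was higher in Sst by 1.56 ± 0.445 (limma adjusted p = 0.0353), the 1 member called of 9, where 7.8% of 14524 genes were. None of the 9 was free of overlap, against 0.833% of all genes.

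Of the 9, 8 had a fitted log2 difference above 0, with a median of 0.76 (all genes: 0.004), and 5 had an unadjusted p below 0.05 against 25.1% of genes. Bst2 was at 2.035, 2.99, 14.7, 2.87, 4.60 and 18.2 FPKM in the Pvalb samples (the averaged pair first, then PV1-M and PV3-M to PV6-M), and its difference was 1.35 ± 0.496 (limma adjusted p = 0.0927). The PV3-M and PV6-M values lay inside the Sst range and the other 4 below it. Usp18 was at 0.0982, 0.265, 0.893, 0, 0 and 0.746 in the same order, against 0 through 1.56 to 3.58 in Sst, with a difference of 0.92 ± 0.30 (limma adjusted p = 0.0604). Irf7 was narrow in Pvalb, 0.817 to 1.35, and its difference was 0.69 ± 0.293 (limma adjusted p = 0.147).

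Without the pair SST0-M and SST1-M, 3 of the 9 were called, against 13.2% of 14511 genes. They were Isg15 at 1.30 ± 0.287 (limma adjusted p = 0.0081), Usp18 at 1.03 ± 0.271 (limma adjusted p = 0.0193) and Bst2 at 1.05 ± 0.316 (limma adjusted p = 0.0334). With the females as the only Sst controls, 5 were called (Ifit1, Ifit3, Isg15, Usp18 and Oasl2), against 25.1% of 14502 genes, but sex and class then cannot be told apart. Rsad2 had a difference of -0.02, with a 95% interval from -0.60 to 0.56. Leaving out any of PV1-M, PV3-M, PV4-M, PV5-M, PV6-M, SST2-F or SST6-F brought the count of calls from 1 to 0.

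The Pvalb samples also fell apart over all genes. The SD of the log2 ratio was 0.225 to 0.276 among PV4-M, PV5-M and PV1-M, 0.258 between PV3-M and PV6-M, and 0.56 to 0.606 between these sets. In PV1-M, PV4-M and PV5-M, where Xist was at 300 to 333 FPKM, Ifit1 was at 0, Ifit2 was at 1.99, 1.53 and 1.96 and Ifit3 at 5.21, 4.09 and 5.17. PV3-M, PV6-M and the averaged pair had Ifit1 at 0.328, 0.799 and 3.08, Ifit2 at 0.319, 0.415 and 0.47 and Ifit3 at 2.78, 3.26 and 1.43. These 3 of the 9 did not overlap between the 3 libraries with the highest Xist and the rest, where 43% of 14146 genes did not. Without these 3 samples no member was called for Sst against Pvalb, where 0.0964% of 14519 genes were, and Isg15 was at 1.40 ± 0.622 (limma adjusted p = 0.387). With all 6 Pvalb samples, where 7.8% of all genes were called, 5 of 6 endothelial markers were called higher in Sst samples (median 2.28). Excitatory neuron markers were lower in 3 of 5 tested, with a median of -0.88 and median sums of 52.2 FPKM in Sst and 495 in Pvalb samples. Their sums were 25.6 and 25.8 in PV0-M and PV2-M and 464 to 532 in the other Pvalb libraries, where Camk2a alone had 435 to 500. Of the interneuron markers 2 of 9 (Sst and Pvalb) and of the microglia markers 1 of 12 (C1qc) were called lower in Sst samples. The part of these cells in the Isg15 difference was not tested.

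**Figure D4:**
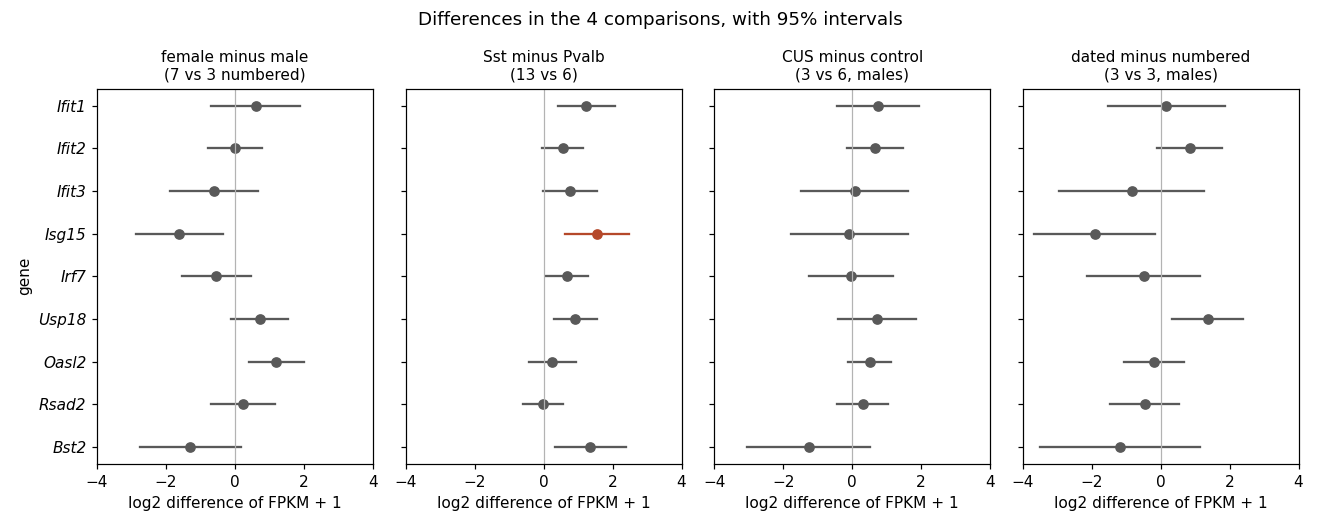
log2 difference of FPKM + 1 with its 95% interval for each gene in the 4 comparisons (numbers of samples above the panels), red where the adjusted p was below 0.05. Isg15 in Sst against Pvalb, at 1.56, is the one red point.

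CUS was compared in Sst males, 3 stressed samples against 6 controls. No member passed the test, nor did any have an unadjusted p below 0.05, where 0.00698% of 14319 genes (1 gene) were called and 7.47% had an unadjusted p below 0.05. The 9 had a median difference of 0.30, and all genes 0.018. The intervals were wide. That of Bst2 ran from -3.04 to 0.53 and that of Isg15 from -1.76 to 1.61, both with the SST0-M and SST1-M pair among the controls. Without it Bst2 moved from -1.25 to -0.62 ± 0.286 and Isg15 from -0.08 to 0.48 ± 0.384, still with no call.

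The 3 dated controls share the title kind of the CUS libraries, but all 3 CUS titles and only 1 control title (SS04031R) begin alike, so the title number still runs with CUS. Isg15 was at 2.09, 3.74 and 4.97 FPKM after CUS and at 0.867, 1.75 and 1.75 in these controls, a difference of 0.88 ± 0.306. Oasl2 was at 3.55, 4.44 and 2.96 after CUS and at 1.34, 2.04 and 2.92 in the controls, a difference of 0.60 ± 0.255. Bst2 was at 7.35, 11.3 and 6.42 after CUS and at 17.0, 12.4 and 11.7 in the controls, a difference of -0.67 ± 0.238. The groups did not overlap in these 3 of the 9 genes, where 18.7% of 14186 genes did not, and by limma each had an adjusted p of 0.647 and 0.00705% of genes were called.

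The other 6 overlapped between CUS and dated controls. Ifit1 was at 2.94, 4.12 and 4.50 FPKM after CUS, and Ifit3 at 7.67, 9.04 and 5.99. Ifit2 was nearly constant after CUS (4.70, 4.36 and 4.12), and Usp18 ran to the highest value of the series in 1 stressed sample (5.01, against 2.27 and 2.13). Microglia markers summed to 2740 to 3180 FPKM after CUS and to 3470 to 7590 in the dated controls. Oligodendrocyte markers summed to 1600 to 1970 and 391 to 1280, and endothelial markers to 144 to 223 and 17.2 to 126. SS04031R alone held the control values of 7595, 391 and 17.2. SST040241L and SST04241LL had 3467 and 3771, 1284 and 1082, and 126 and 113. SS04031R also stood apart over all genes, with an SD of the log2 ratio of 0.635 and 0.656. That between SST040241L and SST04241LL was 0.267. Of the dated controls, SS04031R had the lowest Isg15 (0.867) and Oasl2 (1.34) and the highest Bst2 (17.0). The summed lymphocyte and neutrophil markers were at 7.04, 12.98 and 9.89 after CUS and ran from 0.647 to 8.59 in the dated controls. The part of these in the values after CUS was not tested.

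Dated and numbered male controls (3 samples each) were compared because the title kind runs with CUS. None of the 9 was called, against 4.11% of 14230 genes, and 2 did not overlap, against 33.5%. These were Usp18, higher in the dated males by 1.36 ± 0.438 (95% interval 0.34 to 2.38, limma adjusted p = 0.12), and Isg15, at -1.92 ± 0.751 (95% interval -3.67 to -0.17, limma adjusted p = 0.179). Without the SST0-M and SST1-M pair they were at 1.07 ± 0.388 and -1.01 ± 0.337. The median of the 9 was -0.46, and that of all genes -0.004.

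Other genes of the pathway were taken from lists. Over all genes tested, 3.41% were called for sex, 7.8% for Sst against Pvalb, 0.00698% for CUS and 4.11% for title kind. Of 21 interferon genes in the table, 18 were listed at 0 in every sample, all but 1 of the alpha interferons, Ifnb1 and Ifng among them, and the 3 others (Ifnk, Ifnz and Ifna11) summed to at most 1.94 FPKM. Only 1 ligand at most was high enough to be tested in a comparison, and none was called. Of 18 receptor and signalling genes 17 were tested. Ifngr1 and Ifngr2, the chains of the interferon-gamma receptor, were lower in females than in numbered males by limma (-0.88 ± 0.215 and -0.87 ± 0.208, adjusted p = 0.0479 and 0.0453), and Socs3, a feedback inhibitor of cytokine signalling, was lower in Sst than in Pvalb samples (-0.87 ± 0.266, adjusted p = 0.0468).

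Of 23 nucleic acid sensors and factors that induce interferon, all tested, Tmem173, which encodes STING, was the 1 call for sex, lower in females at -1.34 ± 0.232 (36.2 against 92.5 FPKM, limma adjusted p = 0.0174). Mb21d1, which encodes the DNA sensor cGAS, and Ticam1, the adaptor of Tlr3, were lower in Sst than in Pvalb samples (-0.85 ± 0.259 and -0.79 ± 0.228, limma adjusted p = 0.0464 and 0.0357). Tlr3, a receptor for double-stranded RNA, was lower in dated males (-1.98 ± 0.264, limma adjusted p = 0.0142). Microglia, whose markers had medians of -0.93 for sex and -0.63 for class, are known to make these sensors and receptors too, and their part was not tested.

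Of 49 other type I interferon-stimulated genes in the table, 45 were tested for sex, where 3.41% of all genes were called. Ifitm2, a membrane protein that hinders virus entry, was the 1 called, higher in females by 2.48 ± 0.288 (56.0 against 9.45 FPKM, limma adjusted p = 0.00164), and the list had a median of 0.29. For Sst against Pvalb 4 of 44 were called, where 7.8% of 14524 genes were. Ifi44 (1.05 ± 0.286) and Samd9l (0.93 ± 0.220) were higher, and Phf11b (-1.36 ± 0.268) and Lgals9, a galectin (-1.14 ± 0.230), were lower, with limma adjusted p from 0.00557 to 0.0287. The list had a median of 0.28, below that of the 9 members.

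Among 21 interferon-gamma response genes none was called for sex. Gbp9, a guanylate-binding protein, was higher in Sst than in Pvalb samples (0.80 ± 0.227, limma adjusted p = 0.0343), and Gbp3, of the same family, was higher in dated males (1.76 ± 0.380, limma adjusted p = 0.0488). None of the lists held a call for CUS. An unadjusted p by limma below 0.05 was found in 5 of 43 other type I genes and 0 of 17 receptor and signalling genes. It was also found in 4 of 23 sensors, 4 of 17 interferon-gamma response genes and the 1 ligand tested (Ifnk, 0.68 ± 0.297). Of all genes tested, 7.47% had such a p.

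The genes most like each member over the 22 samples were mostly not interferon-stimulated genes. By Pearson correlation of log2(FPKM + 1) over 14566 genes, Rsad2 was closest to Ccdc13 (r = 0.77) and then to Oasl2 (0.76), the one case in which a member was among the closest 2 of another. Oasl2 was closest to Pnpla6 (0.89) and Tns1 (0.87), Ifit1 to Grb10 (0.93) and Sgms1 (0.92), Ifit2 to Stk3 (0.88) and Psip1 (0.86), and Usp18 to Stim2 (0.89) and Alyref2 (0.87). Without the SST0-M and SST1-M pair these stood at nearly the same values (Oasl2 with Pnpla6 0.89, Ifit1 with Grb10 0.94, Usp18 with Stim2 0.87).

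The members that were high in the pair rested partly on it. Bst2 was closest to Dyrk1a (0.93, and 0.85 without the pair) and Pex2 (0.90 and 0.74), Ifit3 to Gfm1 (0.92 and 0.81) and Tbx15 (0.88 and 0.61), Isg15 to Dsel (0.90 and 0.81) and Gpr17 (0.87 and 0.75), and Irf7 to Npr1 (0.89 and 0.79) and Slc13a4 (0.89 and 0.77). Between members, Bst2 and Ifit3 had a correlation of 0.72 with the pair and 0.27 without it, Isg15 and Irf7 0.80 and 0.62, and Oasl2 and Rsad2 0.76 and 0.81. The samples share groups, title kinds and cell mixtures, so these are descriptions of this set of samples.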

How the data were processed

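RNA-seq of sorted cells was deposited by the authors as FPKM, scaled for gene length and library size, for 23993 genes in 24 libraries. The Methods name HISAT2 and StringTie on mm10, with TopHat2 and mm9 in the sentence before, while the submitters' processing notes name TopHat2, Cufflinks, Cuffdiff and mm10. Whether the stated ComBat batch correction was applied to the deposited FPKM is not given in the sources used here. The upper quartile over genes was 9.5 to 10.65 FPKM in every library while totals ran from 276023 to 1311420, so libraries were scaled to each other and depth is unknown. Of the 30 labelled samples, 6 were not analysed here.

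Near-identical libraries (log2 ratios whose SD was below 10% of the SD found for the second closest pair of the group) were averaged. limma 3.58.1 in R 4.3.3, with the trend and robust options and two-sided tests, was run on log2(FPKM + 1) for genes whose average over the compared samples exceeded 0.4 FPKM. Adjustment was by Benjamini and Hochberg, over every gene tested, with a threshold of 0.05, and the procedure was tested on simulated data. Intervals are 95%. The labels do not say whether libraries came from separate mice, so p-values measure the spread between these samples, which may be technical. Python 3.11.15 with pandas 2.3.3, numpy 2.4.6 and matplotlib 3.10.9 served other steps.

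The members and lists were chosen with earlier results of these data known. Named beside them were, per interferon list and comparison, the 2 largest rises and falls past the threshold, the 2 genes most alike to each member, and label and marker genes. S100a8, S100a9, Ifi35 and Oas1b were named after their values were seen. Positions and promoters are those of RefSeq on GRCm38.p6.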

Additional observations from a re-analysis of the deposited data

Results flagged for a closer look

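Over 27 sets of values (9 genes in 3 groups of 6 or 7 samples) the highest or lowest sample stood apart from the rest of its group 4 times, where chance gives about 5% of sets. In the Sst male controls the averaged SST0-M and SST1-M stood apart with 50.2 FPKM of Ifit3 and 194.9 of Bst2. In the Sst females SST-F stood apart with 5.0 FPKM of Ifit2. In the Pvalb male controls the averaged PV0-M and PV2-M stood apart with 1.70 FPKM of Isg15, where PV1-M had 0.38 and the other 4 were at 0. Both averaged samples are the near-identical pairs, and the part of the processing or of the cell mixture in these values was not tested.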

How the results depend on the processing

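The number of the 9 genes called for sex (0) was 2 with the near-identical libraries kept apart and 1 each with all male controls, with dated male controls only and, chosen after seeing the data, with all males but the averaged SST0-M and SST1-M. The number called for Sst against Pvalb (1) was 2 with a pseudocount of 0.1 and 0 with a pseudocount of 5, with libraries kept apart, with numbered male Sst controls only and without Pvalb libraries with Xist above 1 FPKM, which left 1 Pvalb sample, assumed to vary like the others. It was 0 without the 3 Pvalb samples highest in Xist and 5 with female Sst controls only (both also chosen after seeing the data). With 1 sample left out it was 0 to 3, being 2 without SS04031R, SST3-F, SST3-M or the averaged PV0-M and PV2-M and 3 without SST4-M or the averaged SST0-M and SST1-M. For dated against numbered males (0) it was 1 with libraries kept apart. For CUS it was 0 in every alternative run. The cause was not tested. Numbers in titles shared by groups gave a replicate block that left 0 members called for sex and 0 for Sst against Pvalb. The correlation of deviations of same-numbered samples was -0.05 to 0.05 between the sexes and -0.04 to 0.12 between the classes, and not every sample correlated best with its own number, so the numbers do not pair the samples.

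Genes called in all for sex (493) were 2549 with libraries kept apart, 1699 with all males, 6032 with dated males, 3552 with all males but the pair and 11 with the block, and with 1 sample left out from 100 (without SST3-M) to 1787 (without SST-F). For Sst against Pvalb (1133) they were 1910 without the pair, 13 with numbered male Sst controls, 39 without Pvalb libraries with Xist, 14 without the 3 highest in it, 3638 with females only and 10 with the block, and with 1 sample left out from 389 (without PV5-M) to 2130 (without the averaged PV0-M and PV2-M). For CUS (1) they were 2309 with numbered controls, 6 with controls of both sexes, and 3 each without a filter and with libraries kept apart. For dated against numbered males (585) they were 381 without a filter, 1119 after quantile normalization and 1769 with libraries kept apart, and with 1 sample left out from 54 (without SST040241L) to 1962 (without the averaged SST0-M and SST1-M). The shares of called genes given beside the members move with these. Of the calls for sex 51.3% were higher in females, and 40.5% after scaling to a common median.

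Some members not called changed direction, with the values that follow. For female minus male these were Ifit2 with a pseudocount of 5 (0.01), Rsad2 after quantile normalization (-0.01) and with the block (-0.42), Ifit1 with the block (-0.21), Ifit3, Isg15 and Usp18 against dated males (0.24, 0.29 and -0.64), and Ifit3, Irf7 and Usp18 against all males without the pair (0.35, 0.04 and -0.22). For Sst minus Pvalb they were Rsad2 with a pseudocount of 5 (0.02), with libraries kept apart (0.03), with numbered Sst controls (0.12), without Pvalb libraries with Xist (0.04), without the 3 highest in it (0.12) and with females only (0.19), Oasl2 with numbered male Sst controls (-0.35) and with the block (-0.31), and Ifit1 without Pvalb libraries with Xist (-0.24). For CUS they were Isg15 and Irf7 with a pseudocount of 0.1 (0.03 and 0.05), with dated controls (0.88 and 0.22) and with controls of both sexes (0.28 and 0.13), Oasl2 with controls of both sexes (-0.19), and Ifit3 with a pseudocount of 5 (-0.05), with libraries kept apart (-0.31) and with numbered controls (-0.35). For dated minus numbered it was Ifit1 with a pseudocount of 5 (-0.02) and with libraries kept apart (-0.25).

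With 1 sample left out, female minus male ran from -0.21 to 0.19 for Ifit2, from -1.28 to 0.52 for Ifit3 and from -1.01 to 0.18 for Irf7. Rsad2 in Sst minus Pvalb ran from -0.11 to 0.07. CUS minus control ran from -0.13 to 0.60 for Ifit3, from -0.32 to 0.31 for Irf7 and from -0.35 to 0.48 for Isg15. Dated minus numbered ran from -2.09 to 0.12 for Bst2, from -0.27 to 0.98 for Ifit1, from -1.52 to 0.28 for Ifit3, from -0.96 to 0.23 for Irf7 and from -0.37 to 0.00 for Oasl2. Values without counts give no counting error, and members under about 1 FPKM are the least certain.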
